A study of Homo sapiens with 18 samples.

Results

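The effect of lowering YAP in H1299 cells was examined over all measured genes in 6 of the series' 18 libraries. These were the 3 libraries of H1299 cells transfected with an siRNA pool against YAP (siYAP 1 to 3) and the 3 of H1299 cells given a control siRNA (siControl 1 to 3), assigned by their sample titles. H1299 is a human non-small cell lung cancer line that lacks p53. Cells of both groups had received 30 nM siRNA for 48 h and had no serum for the last 18 h, and poly(A) RNA was sequenced. The pool is a SMARTpool, a mixture of siRNAs to the same transcript. It was the only reagent used against YAP, so effects of the pool other than those through YAP cannot be told apart from those through it. H1299 libraries with a SMARTpool against TAZ (siTAZ 1 to 3) and A549 libraries with siYAP or siControl were used where a difference was tested. Whether replicates came from separate cultures is not said in the labels, and the p-values may therefore reflect technical spread alone.

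YAP (gene YAP1) and its paralog TAZ (gene WWTR1) are transcriptional coactivators that bind no DNA themselves and act through the TEAD transcription factors. The Hippo pathway, a kinase cascade headed by NF2, MST and LATS proteins, phosphorylates them and keeps them in the cytoplasm. In epithelial and carcinoma cells they are known for driving proliferation genes and matricellular genes such as CTGF and CYR61.

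The siYAP libraries held 20.1, 18.8 and 20.8 M assigned reads and the siControl libraries 18.1, 16.8 and 18.5 M. Levels are counts per M assigned reads (CPM) after scaling of the library sizes, and log2 changes are siYAP minus siControl ± the standard error of the fit. A gene was called at an adjusted p below 0.05. Strand use in the counting is not given in the sources used here. Of the 15775 tested genes, 5691 overlap an annotated gene on the other strand, 1906 one on the same strand and 3209 both, and reads from such partners cannot be told apart. Mitochondrial transcripts took 11.98%, 11.4% and 11.3% of reads in the siYAP libraries, against 9.47%, 8.01% and 11.1% in the siControl libraries. Their part in the results was not tested. Of the epithelial markers, EPCAM had 5, 5 and 8 reads in the siYAP libraries and 3, 3 and 2 in the siControl libraries, and KRT19 had 5, 5 and 6 reads in the siYAP libraries and 3, 7 and 3 in the siControl libraries. Both were too low to test, whereas 16 other epithelial junction and keratin genes were tested. Among these, KRT8, a simple epithelial keratin, stood at 209, 194 and 223 CPM in the siYAP libraries and 153, 182 and 155 CPM in the siControl libraries. KRT8 was called higher, and its call was lost without siYAP 1, siYAP 3, siControl 1 or siControl 3 (adjusted p up to 0.162). KRT80, OCLN and DSP of the same list were called lower. The mesenchymal filament gene VIM stood at 2329.6, 2908 and 2392 CPM in the siYAP libraries and 2931, 3510.0 and 2839.8 CPM in the siControl libraries and was called lower with the replicate number as a block, not without it (adjusted p = 0.0148). Of 11 tested mesenchymal factor genes, 2 were called higher (TWIST2 and ZEB2) and 0 lower, against 7.89% and 8.75% of all tested genes. Leaving out 1 library gave 0 to 2 higher and 0 to 2 lower calls, and the block 2 higher and 3 lower.

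The library siYAP 1 stood apart in a small set of metal response genes. MT1X, a metallothionein that binds zinc and copper, stood at 79.5, 1.60 and 2.47 CPM in the siYAP libraries and 1.66, 2.50 and 1.24 CPM in the siControl libraries. SLC30A1, the zinc exporter of the plasma membrane, stood at 268, 14.8 and 22.9 CPM under siYAP and 12.5, 15.8 and 12.7 CPM under siControl. MT2A, another metallothionein, had 400.2, 51.6 and 65.6 CPM under siYAP and 68.3, 80.8 and 80.4 CPM under siControl. siYAP 1 has by far the highest value of each gene, and the other siYAP libraries overlap the siControl libraries for MT1X and SLC30A1 and lie below them for MT2A. In siYAP 1, 7 genes were at least 2-fold above every other H1299 library (0.5 CPM added to each value): these 3 and GRHL1, FAM189A2, SUSD5 and C3orf80. The other H1299 libraries had 0 or 1 such gene each. MT1X and SLC30A1 were called at 3.95 ± 1.14 (adjusted p = 0.0308) and 2.90 ± 0.82 (adjusted p = 0.0281), and MT2A was not (log2 1.17 ± 0.54, adjusted p = 0.151). Without siYAP 1 the log2 changes were 0.18 for MT1X (adjusted p = 0.786), 0.46 for SLC30A1 (adjusted p = 0.386) and -0.39 for MT2A (adjusted p = 0.0714). MT1X also missed the threshold without siControl 1 (3.91, adjusted p = 0.102), siControl 2 (4.26, adjusted p = 0.0523) or siControl 3 (3.74, adjusted p = 0.0945), and SLC30A1 without siControl 1 (2.84, adjusted p = 0.0956) or siControl 3 (2.85, adjusted p = 0.0838). Without siYAP 2, MT2A passed (1.61, adjusted p = 0.0266). These genes were singled out after their values were seen.

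Knockdown of YAP1 was seen in each siYAP library. On GRCh38, YAP1 lies on chromosome 11, 102110461 to 102233423. Its level was 12.8, 19.6 and 11.7 CPM under siYAP, against 83.6, 83.8 and 77.9 CPM under siControl. The siYAP levels are 15.7%, 24.0% and 14.4% of the siControl mean, so the most YAP1 was left in siYAP 2, and the groups were far apart. The log2 change was -2.48 ± 0.15 (adjusted p = 2.6e-06). WWTR1 (chromosome 3, 149517235 to 149736714) stood at 173, 203 and 167 CPM under siYAP and 265, 276 and 229 CPM under siControl. All siYAP values of the paralog lie below all siControl values, at 67.2%, 79.0% and 65.0% of the siControl mean. The difference did not pass (log2 -0.51 ± 0.26, adjusted p = 0.204). With the replicate number as a block, which compares libraries of the same number, the adjusted p was 0.0398. The WWTR1 difference also passed in a fit of the 6 siYAP and siControl libraries alone. The main fit takes in the siTAZ libraries too, in which WWTR1 is the target.

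Of the 4 TEAD genes, TEAD1 and TEAD4 fell, and TEAD2 and TEAD3 were not called. TEAD1 stood at 46.9, 60.4 and 43.4 CPM in the siYAP libraries and 70.4, 75.3 and 66.1 CPM in the siControl libraries. TEAD4 stood at 29.6, 31.2 and 32.4 CPM under siYAP and 41.1, 36.8 and 45.5 CPM under siControl. In both genes the groups do not overlap. The log2 change was -0.49 ± 0.12 (adjusted p = 0.0138) for TEAD1 and -0.40 ± 0.10 (adjusted p = 0.0164) for TEAD4. The TEAD1 call was lost without siYAP 3 (-0.39, adjusted p = 0.0757) and without siYAP 1 (-0.46, adjusted p = 0.0586). The TEAD4 call was lost without siYAP 1 (-0.38, adjusted p = 0.0661), without siControl 3 (-0.34, adjusted p = 0.0683) and without siControl 1 (-0.41, adjusted p = 0.0581). The log2 difference was -0.29 ± 0.12 (adjusted p = 0.114) for TEAD2 and 0.27 ± 0.11 (adjusted p = 0.122) for TEAD3. TEAD2 passed with the block (adjusted p = 0.026) and without siControl 3 (log2 -0.41, adjusted p = 0.0448), and TEAD3 without siControl 2 (log2 0.37, adjusted p = 0.0409). VGLL4, a TEAD cofactor that competes with YAP, had a difference of 0.16 ± 0.13 (adjusted p = 0.422) and was called higher without siControl 2 (log2 0.35, adjusted p = 0.0345), and VGLL2, a cofactor of muscle, was too low to test, with 5 to 6 reads per siYAP library and 4 to 11 per siControl library.

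**Figure D1:**
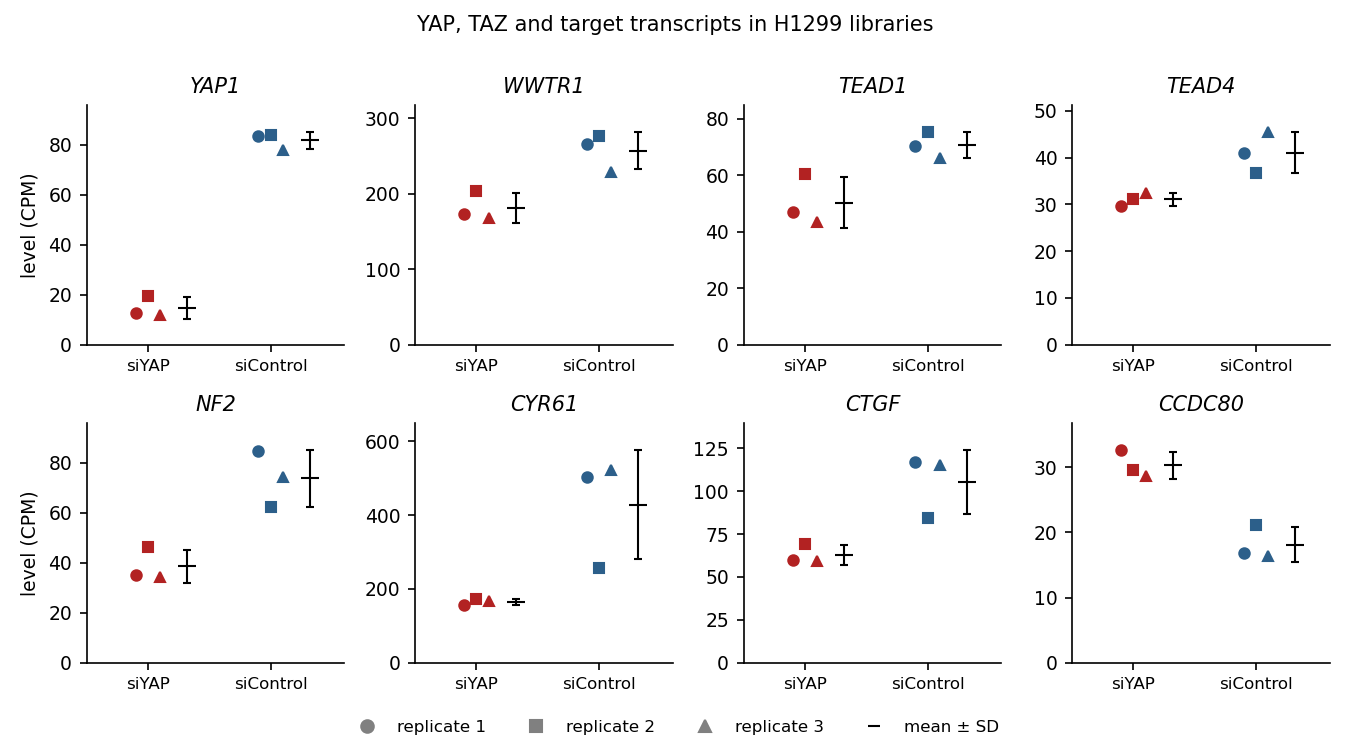
Levels in CPM (y axis, linear from 0) of 8 transcripts in the 3 siYAP and 3 siControl libraries of H1299 (symbols mark the replicate number, bars the mean ± SD, n = 3). YAP1 is between 11.7 and 19.6 CPM under siYAP and between 77.9 and 83.8 CPM under siControl, and CCDC80 is the one gene of the 8 that is higher under siYAP.

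Between siYAP and siControl a large share of the transcriptome differed, mostly by small amounts. Of 15775 tested genes, 2625 were called (16.6%), of which 1244 were higher (7.89%) and 1381 lower (8.75%). The median size of a called log2 change was 0.53, and 337 called genes changed at least 2-fold, 217 upward and 120 downward. The called lower genes were the more highly expressed, with a median level of 47.0 CPM, against 19.1 CPM for the called higher genes. The count without 1 library was 1124 without siYAP 1, 1139 without siYAP 3, 1127 without siControl 1 and 1568 without siControl 3. It was 3066 without siYAP 2 and 2621 without siControl 2. With the replicate block 4461 genes were called (28.3%), 2138 higher (13.6%) and 2323 lower (14.7%). All siYAP libraries lay below all siControl libraries in 18.3% of tested genes and above them in 17.8%. Among the called genes the groups did not overlap in 97.3%. The call of 888 genes held without any 1 of the 6 libraries.

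The libraries numbered 2 differed least from each other. Over the 1381 genes called lower, the median log2 ratio of siYAP to siControl within a replicate number was -0.62 for number 1, -0.30 for number 2 and -0.57 for number 3 (0.5 CPM added). Over the 1244 genes called higher, it was 0.65, 0.37 and 0.56. In siYAP 2, the library with the most YAP1 left, the level was the highest of the 3 siYAP libraries in 80.9% of the genes called lower, against 35.5% of the genes not called. In siControl 2 it was the lowest of the 3 siControl libraries in 57.6% of the genes called lower, against 38.4% of the genes not called. Both libraries of number 2 thus lay toward the other group. Whether this follows the YAP1 level was not tested.

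**Figure D2:**
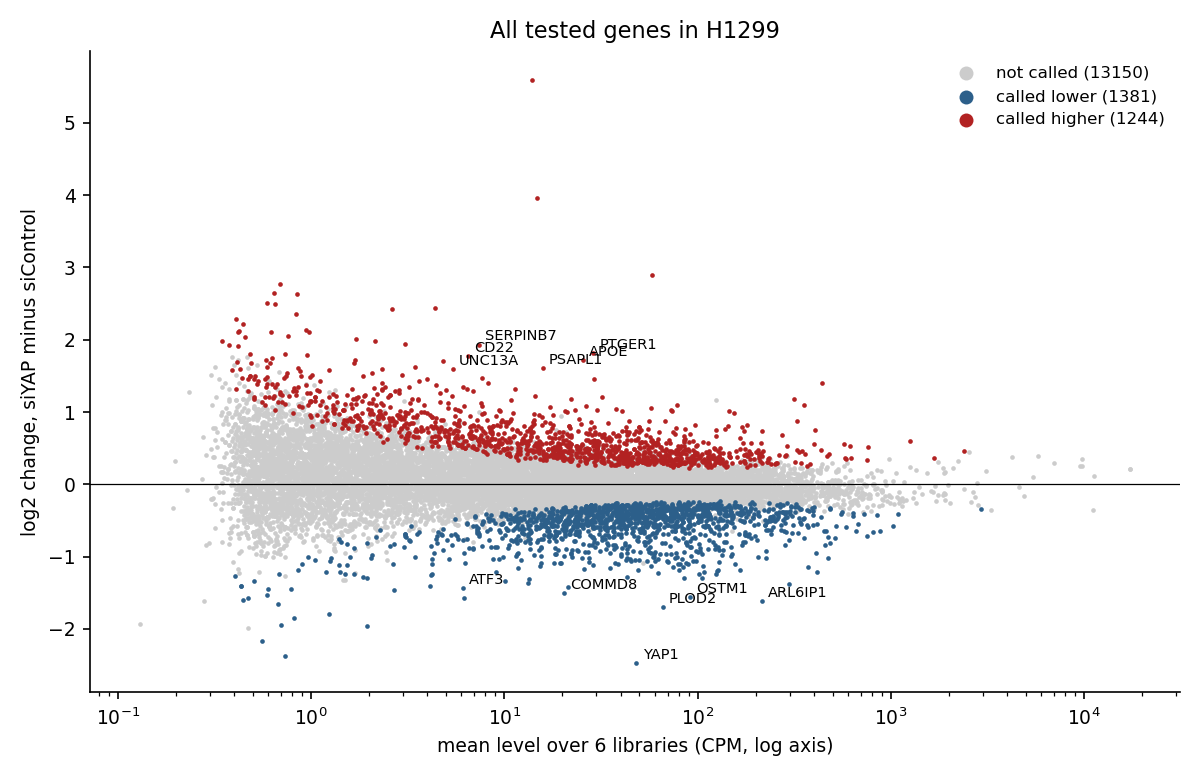
Log2 change, siYAP minus siControl, against the mean level over the 6 libraries (CPM, log axis) for 15775 tested genes. The 1244 genes called higher spread over low and high levels, the 1381 called lower sit mostly above 10 CPM, and the labels mark the 6 largest decreases and increases among protein-coding genes that average 5 CPM or more, with groups apart.

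Among protein-coding genes that averaged 5 CPM or more and whose groups did not overlap, the largest decreases were, after YAP1, in PLOD2, ARL6IP1, OSTM1, COMMD8, ATF3, CENPA, CYR61, KITLG, PMAIP1, BIRC5, TNFRSF21, PEX2, KIF2C and CEP55. PLOD2 (chromosome 3, 146069440 to 146163653), the lysyl hydroxylase of collagen telopeptides, stood at 28.1, 39.5 and 25.5 CPM in the siYAP libraries and 118, 86.1 and 98.1 CPM in the siControl libraries. ARL6IP1 (chromosome 16, 18791667 to 18801678), which shapes the tubular endoplasmic reticulum, stood at 98.8, 129 and 90.0 CPM under siYAP and 311, 243 and 417 CPM under siControl. The siYAP means are 30.8% and 32.7% of the siControl means, with log2 changes of -1.70 ± 0.16 (adjusted p = 0.000158) and -1.61 ± 0.17 (adjusted p = 0.000249). In both genes the groups are far apart. COMMD8, a COMM domain protein of endosomal trafficking, stood at 8.02, 15.6 and 8.36 CPM under siYAP and 27.7, 32.1 and 30.4 CPM under siControl (log2 -1.50 ± 0.20, adjusted p = 0.00081). TNFRSF21, which encodes death receptor 6, stood at 59.5, 72.3 and 50.6 CPM under siYAP and 152, 153 and 143 CPM under siControl (log2 -1.29 ± 0.14, adjusted p = 0.000296). PEX2, a ubiquitin ligase of the peroxisome membrane, stood at 20.8, 34.4 and 20.1 CPM under siYAP and 57.7, 64.2 and 60.7 CPM under siControl (log2 -1.28 ± 0.16, adjusted p = 0.000798). In each of these genes siYAP 2 was the highest siYAP library. It still lay below every siControl library, which the rule of choice required. All of these calls held without any 1 library. KITLG, the ligand of the receptor KIT, stood at 6.17, 7.95 and 3.04 CPM under siYAP and 11.7, 21.5 and 10.1 CPM under siControl (log2 -1.34 ± 0.33, adjusted p = 0.0159). Its lowest siControl value, in siControl 3, was close to its highest siYAP value, in siYAP 2. The KITLG call was lost without siYAP 3 (-1.02, adjusted p = 0.0708) and without siControl 2 (-0.94, adjusted p = 0.050003).

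The largest increases under the same rule were in SERPINB7, PTGER1, CD22, APOE, PSAPL1, UNC13A, SPOCD1, LMTK3, B3GNT3, VGF, SNCG, EPDR1, LRRN4CL, CORO1A and TMEM229B. SERPINB7, a serine protease inhibitor of epithelia, stood at 14.6, 5.50 and 15.1 CPM in the siYAP libraries and 3.78, 2.44 and 2.98 CPM in the siControl libraries (log2 1.93 ± 0.31, adjusted p = 0.00204). PTGER1, a prostaglandin E2 receptor, stood at 43.6, 37.5 and 54.1 CPM under siYAP and 12.1, 12.04 and 14.4 CPM under siControl (log2 1.81 ± 0.14, adjusted p = 3.1e-05). SERPINB7 was far lower in siYAP 2 than in siYAP 1 or siYAP 3, whereas PTGER1 was high in all 3. B3GNT3, a glycosyltransferase of mucin-type sugars, stood at 13.6, 7.63 and 14.5 CPM under siYAP and 3.90, 4.83 and 4.77 CPM under siControl (log2 1.41 ± 0.21, adjusted p = 0.00154). SNCG, which encodes gamma-synuclein, stood at 7.02, 6.99 and 12.3 CPM under siYAP and 3.04, 3.87 and 3.48 CPM under siControl (log2 1.34 ± 0.23, adjusted p = 0.00268). CORO1A, an actin-binding coronin best known from leukocytes, stood at 11.5, 8.70 and 9.07 CPM under siYAP and 4.30, 4.11 and 3.59 CPM under siControl (log2 1.29 ± 0.22, adjusted p = 0.00262). These 5 calls held without any 1 library. CD22, a sialic acid receptor of B cells, stood at 8.37, 5.55 and 16.2 CPM under siYAP and 1.66, 2.74 and 4.44 CPM under siControl (log2 1.77 ± 0.40, adjusted p = 0.00983). CD22 was highest in siYAP 3 and, among siControl libraries, in siControl 3. The CD22 call was lost without siYAP 3 (1.24, adjusted p = 0.0545) and without siControl 1 (1.48, adjusted p = 0.0504).

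**Figure D3:**
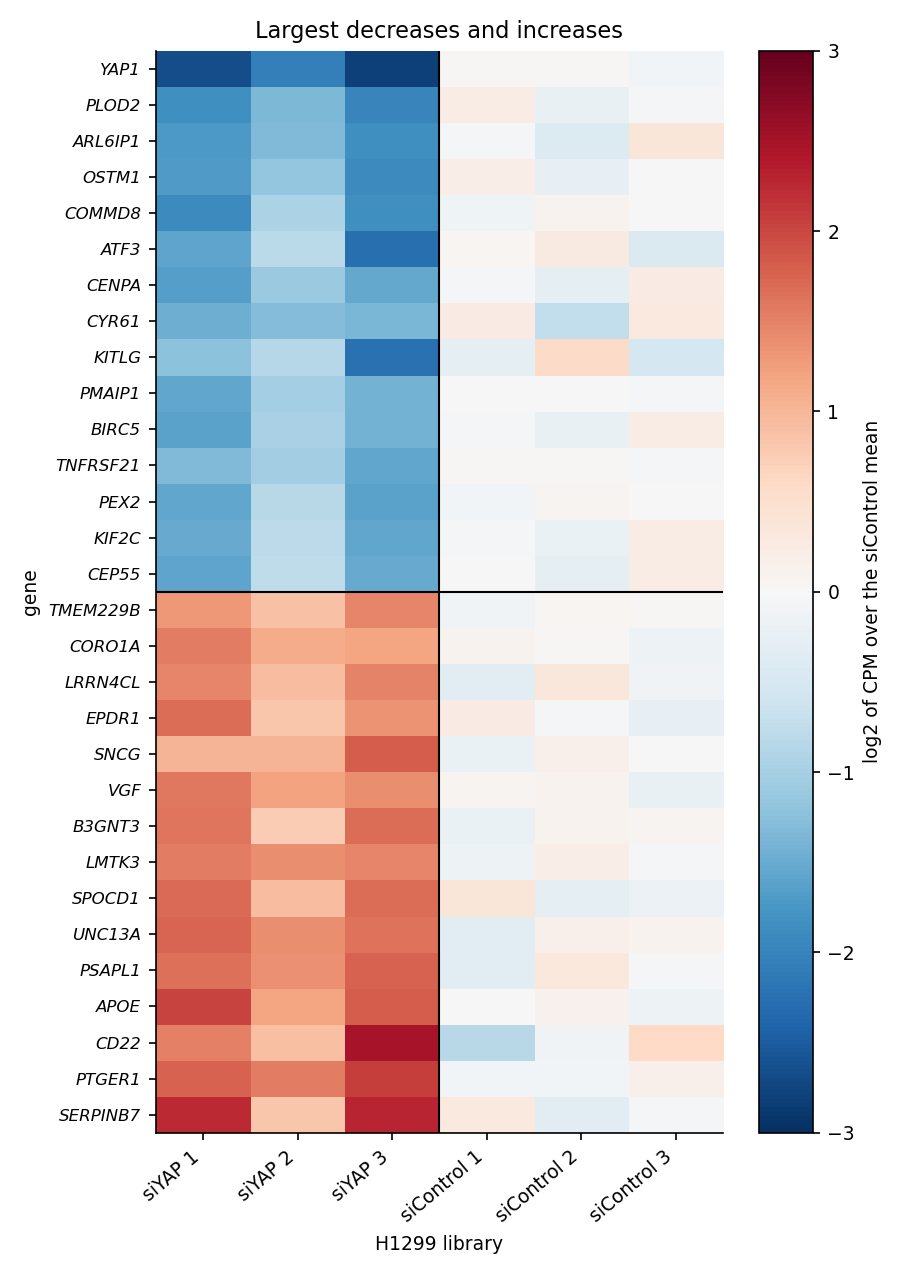
Log2 of the CPM over the siControl mean (colour) in each siYAP and siControl library of H1299 for the 15 largest decreases (top) and the 15 largest increases (bottom). Each siYAP column is blue in the upper block and red in the lower, and siYAP 2 is the palest of the 3 in most rows.

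Markers of lung epithelium and of other cell types were at low levels. Their sums were higher in every siYAP than in every siControl library for 3 of the 4 sets, while those of the neuroendocrine markers overlapped. The markers of endothelium and fibroblasts present in the counts (8 of 13, of which 5 were tested) summed to 12.3 to 16.8 CPM in the siYAP libraries and 6.79 to 7.75 CPM in the siControl libraries. Each marker sum is per M of all assigned reads, without scaling of the library sizes. Leukocyte markers (5 of 12 present, of which 2 were tested) summed to 8.36 to 18.3 CPM under siYAP and 5.51 to 7.33 CPM under siControl, with CD22 as the called member. Lung epithelium markers (5 of 16 present, all tested) summed to 16.9 to 19.9 CPM under siYAP and 12.9 to 16.5 CPM under siControl. Neuroendocrine markers (3 of 8 present, of which 2 were tested) summed to 15.9 to 34.5 CPM under siYAP and 14.1 to 23.0 CPM under siControl. The called markers were COL1A1, PDGFRB, CD22, NKX2-1, NAPSA and NEUROD1, all higher, and of these the COL1A1 call held without any 1 library. The PDGFRB call was lost without siYAP 1, siYAP 3 or siControl 1 (adjusted p up to 0.0748), that of NKX2-1 without siYAP 1, siYAP 3, siControl 2 or siControl 3 (adjusted p up to 0.0785), that of NAPSA without siYAP 1, siControl 1 or siControl 3 (adjusted p up to 0.0568) and that of NEUROD1 without siYAP 1, siYAP 2, siYAP 3, siControl 1 or siControl 3 (adjusted p up to 0.146). The endothelial marker PECAM1 stood at 1.10, 1.49 and 1.62 CPM under siYAP and 1.20, 0.715 and 1.01 CPM under siControl and was not called (adjusted p = 0.209). Among all protein-coding genes of the lowest expression, up to 3.05 CPM, 138 were called higher and 23 lower, with a median log2 change of 0.22. The part of the markers in the increases was not tested.

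Upstream Hippo genes moved little, and each call was downward. Of 26 tested members, 6 were lower (NF2, FRMD6, AMOTL2, WWC2, AMOTL1 and SAV1) and 0 higher, with 1 higher and 8 lower under the block. The shares over all tested genes were 8.75% lower and 7.89% higher, or 14.7% and 13.6% with the block. The list's median log2 change was -0.14, against 0.01 over all genes. NF2, which encodes merlin and activates LATS kinases at the membrane, stood at 34.9, 46.2 and 34.4 CPM in the siYAP libraries and 84.9, 62.1 and 74.2 CPM in the siControl libraries (log2 -0.94 ± 0.14, adjusted p = 0.00133). The NF2 groups do not overlap, and its call held without any 1 library. The other 5 calls each failed without at least 1 library, so that the list's lower count was 1 without siYAP 3, 3 without siYAP 1 and 1 without siControl 1. The kinase genes LATS1 and LATS2 had log2 differences of -0.17 ± 0.09 (adjusted p = 0.2) and -0.14 ± 0.08 (adjusted p = 0.271) and were not called.

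Among 20 tested genes of a YAP/TAZ target signature, 7 fell, 1 rose and 12 were not called (3 higher and 8 lower with the block). All tested genes had 8.75% lower and 7.89% higher, or 14.7% and 13.6% with the block, so the higher share with the block was near that of all genes. The list's median log2 change was -0.14, against 0.01 over all genes. CYR61, a matricellular protein, stood at 155, 173 and 166 CPM in the siYAP libraries and 504, 257 and 523 CPM in the siControl libraries. CTGF, its relative, stood at 59.9, 69.5 and 59.3 CPM under siYAP and 117, 84.1 and 115 CPM under siControl. In both, siControl 2 lies well below siControl 1 and siControl 3 and still above every siYAP library. The log2 changes were -1.38 ± 0.23 (adjusted p = 0.00219) and -0.75 ± 0.13 (adjusted p = 0.00295). GADD45A, a stress-inducible growth arrest gene, fell (log2 -0.44 ± 0.10, adjusted p = 0.00975), and CCDC80, a secreted matrix protein, rose (log2 0.74 ± 0.11, adjusted p = 0.00145). These 4 calls held without any 1 library. TGFB2, NUAK2, IGFBP3 and AMOTL2 were called as well, at -0.90, -0.76, -1.10 and -0.41, and the calls of TGFB2 and NUAK2 are taken up below. The call of IGFBP3 was lost without siYAP 2, siYAP 3, siControl 1 or siControl 3 (adjusted p up to 0.0957), and that of AMOTL2 without siYAP 1, siYAP 3, siControl 1, siControl 2 or siControl 3 (adjusted p up to 0.165). The list's lower count was 3 without siYAP 3, 4 without siYAP 1 and 3 without siControl 1. AXL, a receptor tyrosine kinase often used as a YAP readout, had a difference of -0.31 ± 0.16 (adjusted p = 0.188) and passed with the block (adjusted p = 0.0144) and without siControl 2 (log2 -0.46, adjusted p = 0.0484), and ANKRD1, another such readout, had 1, 2 and 5 reads in the siYAP libraries and 2, 5 and 9 in the siControl libraries and was not tested.

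TEAD factors bind the core GGAATG, and the promoters of 2 called target genes hold it. A promoter is here the window of 250 bases before to 50 after the start of the gene's transcript in RefSeq (GRCh38.p14), searched on both strands. TGFB2 (chr1:218345086-218345385, plus strand) holds 1 match and NUAK2 (chr1:205321696-205321995, minus strand) 2. They are shown because they are the called targets whose window has a match, in capitals. Neither holds the AP-1 site TGACTCA.
TGFB2: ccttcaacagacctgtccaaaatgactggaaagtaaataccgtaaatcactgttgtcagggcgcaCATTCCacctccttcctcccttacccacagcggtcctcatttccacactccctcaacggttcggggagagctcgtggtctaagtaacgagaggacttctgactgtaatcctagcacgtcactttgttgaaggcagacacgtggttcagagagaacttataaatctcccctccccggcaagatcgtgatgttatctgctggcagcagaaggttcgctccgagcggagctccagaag
NUAK2: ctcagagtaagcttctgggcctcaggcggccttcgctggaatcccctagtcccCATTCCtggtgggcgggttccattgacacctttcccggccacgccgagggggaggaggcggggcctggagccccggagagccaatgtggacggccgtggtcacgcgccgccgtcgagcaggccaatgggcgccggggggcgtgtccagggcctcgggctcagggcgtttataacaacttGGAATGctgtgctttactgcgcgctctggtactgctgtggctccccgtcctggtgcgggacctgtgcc
TGFB2 stood at 10.8, 13.9 and 7.13 CPM under siYAP and 19.8, 22.0 and 17.5 CPM under siControl, and NUAK2, a kinase that promotes actomyosin contraction, at 3.06, 5.98 and 3.80 CPM under siYAP and 6.71, 7.98 and 6.91 CPM under siControl. The groups do not overlap in either gene. The TGFB2 change of -0.90 ± 0.23 (adjusted p = 0.0169) was lost without siYAP 3 (-0.68, adjusted p = 0.0768), without siYAP 1 (-0.93, adjusted p = 0.0538) and without siControl 1 (-0.91, adjusted p = 0.0528). The NUAK2 change of -0.76 ± 0.21 (adjusted p = 0.0248) was lost without siYAP 3 (-0.67, adjusted p = 0.103), without siYAP 1 (-0.58, adjusted p = 0.1), without siControl 2 (-0.68, adjusted p = 0.0581) and without siControl 1 (-0.81, adjusted p = 0.0556). The table had windows for 13 of the 20 targets, of which 4 held GGAATG (30.8%), against 14.0% of 27305 promoters. TGACTCA was in 1 of the 13 (7.69%), that of F3, against 4.92% of all promoters.

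Genes of mitosis were lower almost throughout, and their lists had the lowest medians of the 39 gene lists examined. These lists were chosen with earlier results of the data known. Of 28 tested mitotic kinases, cyclins and checkpoint genes, 26 fell and 0 rose, with a median log2 change of -0.96. Of 37 tested kinesins, centromere and cytokinesis genes, all 37 fell, with a median of -1.01 and a range of -1.42 to -0.53. The share of genes called lower among all tested genes was 8.75%, and the median over all genes was 0.01. Leaving out 1 library gave 22 to 26 lower calls in the first list and 34 to 37 in the second. In bulk RNA, fewer cells in mitosis and less RNA per cell cannot be told apart.

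CENPA, the histone H3 variant that marks centromeres, stood at 9.88, 14.4 and 10.8 CPM in the siYAP libraries and 30.6, 25.8 and 37.2 CPM in the siControl libraries (log2 -1.42 ± 0.19, adjusted p = 0.00081). CENPF, a kinetochore protein of G2 and M phase, stood at 73.3, 98.3 and 61.9 CPM under siYAP and 178, 142 and 211 CPM under siControl (log2 -1.19 ± 0.17, adjusted p = 0.00118). CENPW, a partner of the inner kinetochore, stood at 8.87, 11.96 and 10.2 CPM under siYAP and 21.5, 18.3 and 21.7 CPM under siControl (log2 -0.99 ± 0.13, adjusted p = 0.00081). In each, siYAP 2 is the highest siYAP library, siControl 2 is the lowest siControl library, and the groups do not overlap. PLK1, the kinase of mitotic entry and spindle assembly, stood at 62.5, 93.9 and 72.6 CPM under siYAP and 151, 149 and 224 CPM under siControl (log2 -1.20 ± 0.19, adjusted p = 0.00191). CCNB1, which encodes cyclin B1, stood at 78.3, 135 and 89.8 CPM under siYAP and 190.1, 229.9 and 269 CPM under siControl (log2 -1.19 ± 0.20, adjusted p = 0.00259). MAD2L1, the spindle checkpoint protein MAD2, stood at 12.6, 21.2 and 14.1 CPM under siYAP and 38.2, 31.5 and 38.0 CPM under siControl (log2 -1.17 ± 0.17, adjusted p = 0.00125). In these 3 genes, too, siYAP 2 is the highest siYAP library and lies below every siControl library. BIRC5, or survivin, a subunit of the chromosomal passenger complex, changed by -1.30 ± 0.20 (adjusted p = 0.00179). KIF2C, a kinesin that depolymerises microtubules, changed by -1.25 ± 0.18 (adjusted p = 0.00143), and UBE2S, a ubiquitin enzyme of the anaphase-promoting complex, by -1.22 ± 0.20 (adjusted p = 0.00201). All of these calls held without any 1 library. The 2 list members without a call were WEE1, an inhibitory kinase of CDK1, at a log2 difference of -0.31 ± 0.13 (adjusted p = 0.127), which passed with the block (adjusted p = 0.0224), and FZR1, the activator of the anaphase-promoting complex in G1, at 0.01 ± 0.08 (adjusted p = 0.975).

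Promoters of mitotic genes commonly carry a cell cycle homology region (CHR, TTTGAA), bound by the MuvB complex, and CCAAT boxes, bound by NF-Y. The windows of CENPA (chr2:26785806-26786105, plus strand), CENPF (chr1:214602945-214603244, plus strand) and CENPW (chr6:126339865-126340164, plus strand) are shown because these genes have the smallest p among called members that hold TTTGAA (CENPA and CENPF) or CCAAT (CENPA and CENPW). Capitals mark TTTGAA or CCAAT on either strand (TTCAAA and ATTGG on the other).
CENPA: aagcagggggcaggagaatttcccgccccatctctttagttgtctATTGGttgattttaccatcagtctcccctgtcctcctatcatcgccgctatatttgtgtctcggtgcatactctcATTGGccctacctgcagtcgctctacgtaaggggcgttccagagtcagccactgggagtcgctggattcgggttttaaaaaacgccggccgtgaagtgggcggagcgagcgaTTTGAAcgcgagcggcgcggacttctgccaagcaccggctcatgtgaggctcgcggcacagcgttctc
CENPF: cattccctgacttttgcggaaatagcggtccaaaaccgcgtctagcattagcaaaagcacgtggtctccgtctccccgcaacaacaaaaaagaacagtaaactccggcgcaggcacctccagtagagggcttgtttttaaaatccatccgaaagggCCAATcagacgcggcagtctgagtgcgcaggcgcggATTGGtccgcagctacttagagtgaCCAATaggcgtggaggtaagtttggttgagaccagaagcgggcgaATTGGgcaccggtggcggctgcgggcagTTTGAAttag
CENPW: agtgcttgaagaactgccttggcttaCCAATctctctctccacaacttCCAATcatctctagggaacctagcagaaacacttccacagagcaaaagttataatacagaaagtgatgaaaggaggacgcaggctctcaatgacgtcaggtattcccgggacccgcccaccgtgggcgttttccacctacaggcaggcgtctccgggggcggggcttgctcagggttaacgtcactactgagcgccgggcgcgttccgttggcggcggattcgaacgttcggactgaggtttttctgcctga
The CENPA window holds 1 CHR match, beginning at -18 from the transcript start, and 2 CCAAT matches. The CENPF window holds 1 CHR match downstream of the start and 4 CCAAT matches, and the CENPW window 2 CCAAT matches and no CHR match. Of the 54 of 65 list members with a window, 35 held TTTGAA (64.8%), against 15.4% of all promoters, and 40 held CCAAT (74.1%), against 35.7%. Among the promoters of tested genes the shares were 9.40% and 36.4%. A match is a description of the letters and not a binding site shown here.

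Most DNA replication genes were lower. Of 35 tested genes of replication origins and forks, 32 were lower, against 8.75% of all tested genes, and the other 3 also had negative values. Their median log2 change was -0.51, and under siTAZ against siControl it was -0.75. The lower count was 14 without siYAP 3, 15 without siYAP 1, 14 without siControl 1 and 18 without siControl 3. GINS2, a subunit of the replicative helicase, stood at 21.2, 27.7 and 23.1 CPM in the siYAP libraries and 53.3, 36.1 and 50.0 CPM in the siControl libraries (log2 -0.95 ± 0.14, adjusted p = 0.00154). MCM7, of the same helicase, stood at 358, 451 and 343 CPM under siYAP and 699, 533 and 694 CPM under siControl (log2 -0.74 ± 0.13, adjusted p = 0.00271). POLA1, the catalytic subunit of the primase polymerase, changed by -0.71 ± 0.12 (adjusted p = 0.00216) and CDC45, the other partner in the helicase, by -0.92 ± 0.15 (adjusted p = 0.00246). The groups are apart in these 4 genes, and siControl 2 is the lowest siControl library in each.

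Enzymes that make nucleotides were also lower, with 10 of 17 lower and 0 higher. For this list and the next, the shares over all tested genes were 8.75% lower and 7.89% higher. The lower count of the nucleotide list was 6 without siYAP 1 and 6 without siYAP 3. DUT, which removes dUTP, stood at 43.9, 59.6 and 44.3 CPM under siYAP and 89.7, 79.7 and 88.6 CPM under siControl (log2 -0.81 ± 0.11, adjusted p = 0.00114). TYMS, thymidylate synthase, stood at 46.4, 64.6 and 47.8 CPM under siYAP and 110.3, 86.0 and 109.9 CPM under siControl (log2 -0.95 ± 0.15, adjusted p = 0.00173), and TK1, thymidine kinase, at 35.1, 49.0 and 36.3 CPM under siYAP and 85.6, 67.5 and 82.5 CPM under siControl (log2 -0.97 ± 0.15, adjusted p = 0.00174). Of 24 tested recombination and Fanconi genes, 17 were lower and 0 higher, and the lower count was 5 without siYAP 1, 5 without siYAP 3, 5 without siControl 1 and 6 without siControl 3. The median log2 change of this list was -0.54, and under siTAZ against siControl it was -0.67. RBBP8, or CtIP, which starts end resection, changed by -0.54 ± 0.09 (adjusted p = 0.00204), and FANCD2, the monoubiquitinated hub of the Fanconi pathway, by -0.87 ± 0.17 (adjusted p = 0.00484). DUT, TYMS, TK1, RBBP8 and FANCD2 were called without any 1 library.

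Transcription factors of the cell cycle were lower in 9 of 19 cases and higher in none, against 8.75% and 7.89% of all tested genes. FOXM1, which activates mitotic genes, stood at 55.9, 93.0 and 63.6 CPM in the siYAP libraries and 137, 119.9 and 147 CPM in the siControl libraries (log2 -0.93 ± 0.17, adjusted p = 0.00327). MYBL2, which joins the MuvB complex in S phase, stood at 60.9, 87.5 and 55.0 CPM under siYAP and 147, 109.9 and 128 CPM under siControl (log2 -0.92 ± 0.19, adjusted p = 0.00563). E2F5, an E2F of the repressive class, stood at 13.3, 16.2 and 15.2 CPM under siYAP and 21.0, 25.3 and 24.4 CPM under siControl (log2 -0.66 ± 0.11, adjusted p = 0.00227). The activating factors E2F1, E2F2 and E2F3 were not called, though E2F1 was lower without siControl 2 (log2 -0.60, adjusted p = 0.012). The list's lower count was 5 without siYAP 1 and 5 without siYAP 3.

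Several inhibitors of cyclin-dependent kinases fell, as did CDK6. Of 16 tested G1 cyclins, G1 kinases and inhibitors, 8 were lower and 0 higher, against 8.75% and 7.89% of all tested genes. The list's median was -0.31. CDKN2B, or p15, an inhibitor of CDK4 and CDK6, stood at 25.7, 36.2 and 23.1 CPM under siYAP and 57.0, 67.3 and 48.2 CPM under siControl (log2 -1.02 ± 0.15, adjusted p = 0.00145). CDKN1A, or p21, stood at 121, 144 and 113 CPM under siYAP and 243, 199 and 169 CPM under siControl (log2 -0.69 ± 0.13, adjusted p = 0.00406). CDK6 itself stood at 160.4, 173 and 115 CPM under siYAP and 277, 243 and 219 CPM under siControl (log2 -0.72 ± 0.15, adjusted p = 0.00605). In these 3 genes the groups do not overlap, and siYAP 2 is the highest siYAP library. CDKN2C, another inhibitor of CDK4 and CDK6, changed by -0.76 ± 0.13 (adjusted p = 0.00271), and CDKN3, a phosphatase of CDK2, by -1.07 ± 0.19 (adjusted p = 0.0029). These 5 calls held without any 1 library. CCND1, cyclin D1, was not called (log2 -0.19 ± 0.09, adjusted p = 0.151).

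**Figure D4:**
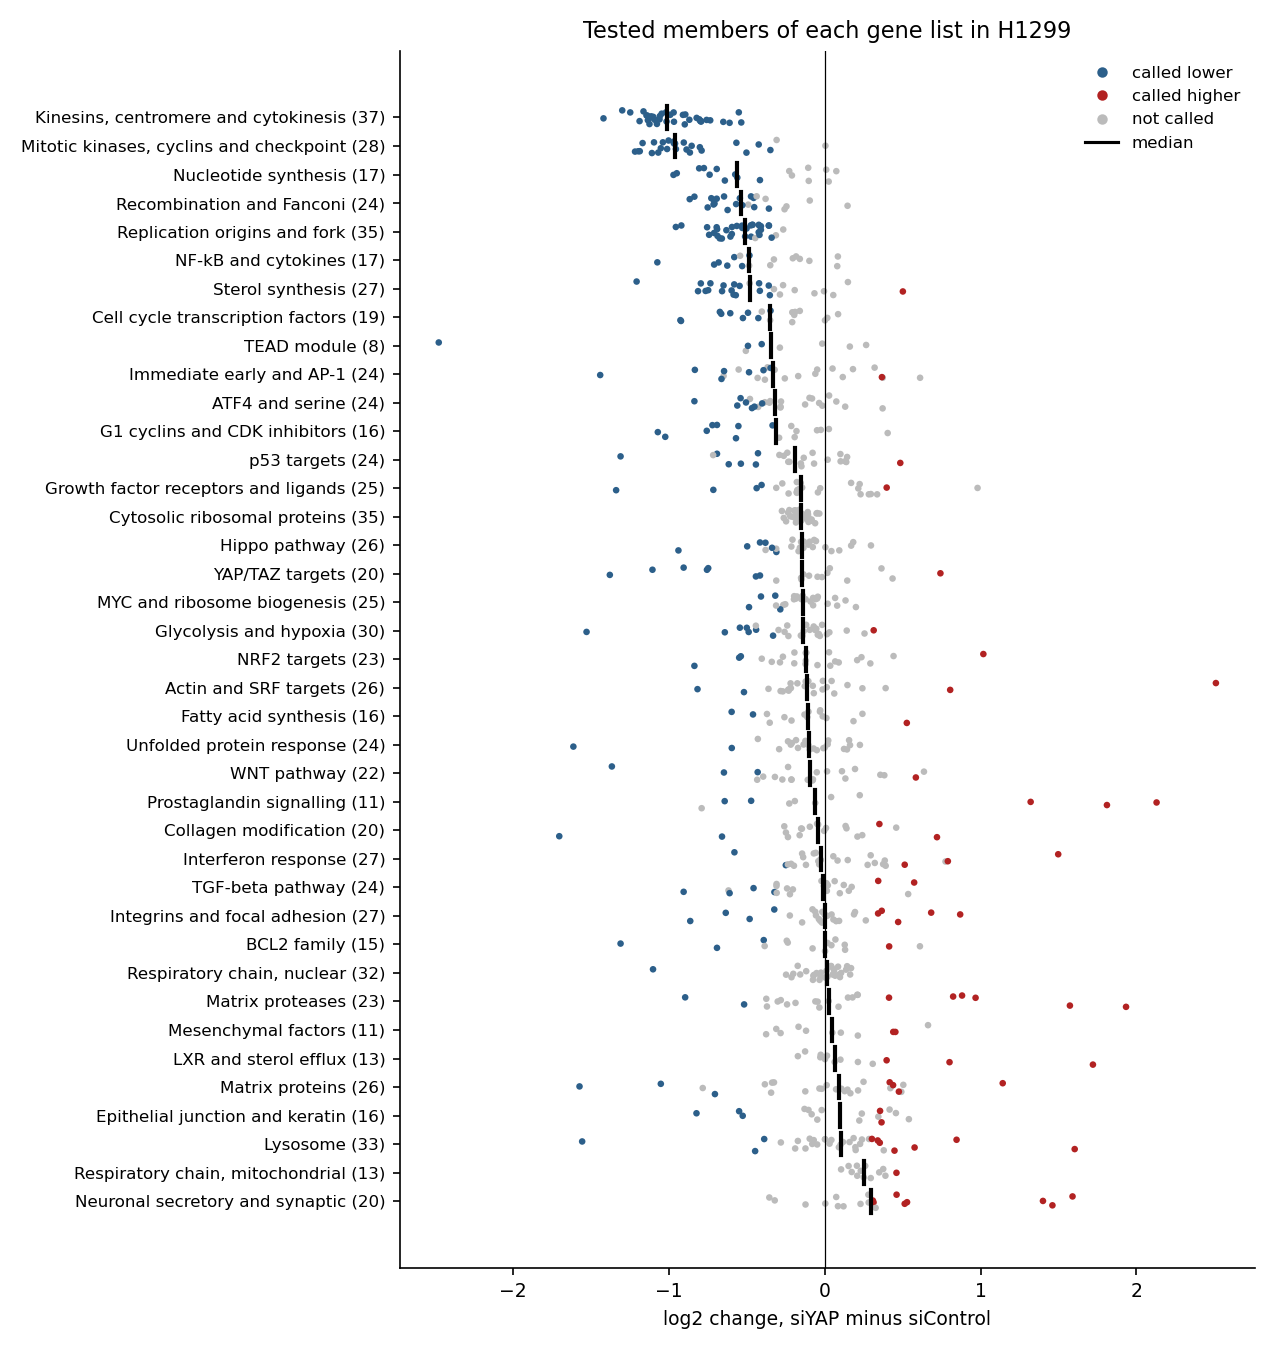
Log2 change, siYAP minus siControl (x axis), of each tested member (point) of 39 gene lists, ordered by their median (black bar); the number tested follows each name. The kinesin and mitotic kinase lists lie almost wholly below 0 with medians of -1.01 and -0.96, and the neuronal secretory list has the highest median, 0.29.

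Most genes of sterol synthesis were lower. Of 27 tested genes, 17 were lower and 1 higher (TM7SF2), against 8.75% and 7.89% of all tested genes. In this list 24 values were negative, and the median was -0.48. The lower count was 5 without siYAP 3, 6 without siYAP 1 and 6 without siControl 1. SREBF2 (chromosome 22, 41833079 to 41907308), the transcription factor SREBP-2 that drives cholesterol synthesis genes, stood at 234, 316 and 207 CPM in the siYAP libraries and 627, 553 and 567 CPM in the siControl libraries. The groups are far apart, and SREBF2 has the largest change of the list, -1.21 ± 0.13 (adjusted p = 0.000297). FDFT1, squalene synthase, stood at 369, 467 and 413 CPM under siYAP and 656, 590.3 and 623 CPM under siControl (log2 -0.58 ± 0.10, adjusted p = 0.00245). ACAT2, a thiolase that starts the pathway, stood at 107, 159.6 and 118 CPM under siYAP and 249, 203 and 214 CPM under siControl (log2 -0.79 ± 0.14, adjusted p = 0.00262). IDI1, isopentenyl diphosphate isomerase, stood at 188, 281 and 191 CPM under siYAP and 446, 338 and 336 CPM under siControl (log2 -0.76 ± 0.16, adjusted p = 0.00702). In these 3 enzymes siYAP 2 is the highest siYAP library and lies below every siControl library. TM7SF2, a sterol reductase, had the opposite direction, with 154, 135 and 139 CPM under siYAP and 98.4, 111 and 93.0 CPM under siControl (log2 0.50 ± 0.09, adjusted p = 0.00295). These 5 calls held without any 1 library. INSIG1, an SREBP-2 target, had a difference of -0.29 ± 0.15 (adjusted p = 0.204) and was not called without the block (adjusted p = 0.0492 with it).

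SREBP factors bind sterol regulatory elements, for which the letters ACCCCAC were searched. They were found in the windows of SREBF2 (chr22:41832855-41833154, plus strand) and IDI1 (chr10:1056655-1056954, minus strand), which are shown with the match in capitals since they are the called sterol genes that hold these letters.
SREBF2: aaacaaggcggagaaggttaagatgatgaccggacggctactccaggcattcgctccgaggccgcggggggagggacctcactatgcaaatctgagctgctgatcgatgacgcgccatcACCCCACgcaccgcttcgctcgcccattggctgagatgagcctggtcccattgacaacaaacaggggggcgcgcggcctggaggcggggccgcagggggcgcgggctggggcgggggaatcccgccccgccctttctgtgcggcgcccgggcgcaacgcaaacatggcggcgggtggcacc
IDI1: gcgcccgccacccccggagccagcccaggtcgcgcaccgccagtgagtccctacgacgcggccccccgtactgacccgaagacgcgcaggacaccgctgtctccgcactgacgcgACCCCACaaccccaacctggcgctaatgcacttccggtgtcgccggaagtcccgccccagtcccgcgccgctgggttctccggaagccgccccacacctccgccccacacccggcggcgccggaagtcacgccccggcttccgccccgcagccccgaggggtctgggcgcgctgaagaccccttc
These were 2 of the 21 sterol genes with a window (9.52%), against 6.12% of all promoters. Counted from the transcript start, the match begins at -131 in SREBF2 and at -135 in IDI1.

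The 3 calls among genes of sterol export were upward, and those among genes of fatty acid synthesis went in both directions. Of 13 tested targets of the liver X receptor and sterol efflux genes, 3 rose (APOE, NR1H3 and ABCA7) and 0 fell, against 7.89% higher and 8.75% lower over all tested genes. The median log2 change of the list was 0.06, against 0.01 over all genes, and 4 values were negative. The ABCA7 call was lost without siYAP 1, siControl 1 or siControl 3 (adjusted p up to 0.0957). APOE, the apolipoprotein that carries exported cholesterol, stood at 48.1, 27.2 and 42.1 CPM in the siYAP libraries and 11.9, 13.05 and 10.7 CPM in the siControl libraries. All siYAP values are at least 2-fold above all siControl values, with siYAP 2 the lowest of them, and the log2 change was 1.72 ± 0.17 (adjusted p = 0.000202). NR1H3, the liver X receptor alpha, stood at 11.7, 9.40 and 12.3 CPM under siYAP and 6.59, 7.15 and 5.45 CPM under siControl (log2 0.80 ± 0.14, adjusted p = 0.00339). ABCA1, the cholesterol exporter, was not called (log2 0.21 ± 0.15, adjusted p = 0.367). In fatty acid synthesis, 2 of 16 genes were lower and 1 higher (1 higher and 5 lower with the block), and ELOVL5, an elongase of polyunsaturated fatty acids, changed by -0.60 ± 0.12 (adjusted p = 0.00603). FASN and SCD, with log2 differences of -0.03 ± 0.15 (adjusted p = 0.913) and -0.35 ± 0.14 (adjusted p = 0.0984), were not called, and SCD passed with the block (adjusted p = 0.0248). For the fatty acid list the higher count was 0 without siYAP 1, siControl 1 or siControl 3, and the lower count was 1 without siYAP 1, siYAP 3 or siControl 1.

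Matrix genes were called in both directions. Of 26 tested matrix proteins 4 rose and 3 fell, of 23 matrix proteases and inhibitors 6 rose and 2 fell, and of 20 collagen-modifying enzymes 2 rose and 2 fell. Over all tested genes 7.89% were called higher and 8.75% lower, and the collagen-modifying enzymes were near these shares. MMP14, a membrane-bound matrix metalloproteinase, stood at 459.7, 403 and 405 CPM in the siYAP libraries and 239.6, 257 and 191 CPM in the siControl libraries (log2 0.88 ± 0.11, adjusted p = 0.000692). SERPINE2, a serpin that inhibits thrombin and urokinase, stood at 257, 196 and 241 CPM under siYAP and 126, 139 and 127 CPM under siControl (log2 0.82 ± 0.16, adjusted p = 0.00426). LOXL1, a lysyl oxidase, stood at 87.2, 60.5 and 87.7 CPM under siYAP and 39.0, 53.7 and 50.1 CPM under siControl (log2 0.72 ± 0.15, adjusted p = 0.00697). MMP14 and SERPINE2 are high in every siYAP library, while siYAP 2 is closest to the siControl range for LOXL1. LAMB3, the laminin-332 beta chain, stood at 132, 155 and 118 CPM under siYAP and 239.8, 206 and 213 CPM under siControl (log2 -0.70 ± 0.12, adjusted p = 0.0024). COL1A1, a fibrillar collagen chain, stood at 6.02, 6.03 and 7.17 CPM under siYAP and 2.92, 2.86 and 2.92 CPM under siControl (log2 1.14 ± 0.18, adjusted p = 0.00175), and COL6A1, of collagen VI, at 223, 197 and 194 CPM under siYAP and 148, 165 and 147 CPM under siControl (log2 0.42 ± 0.08, adjusted p = 0.00585). The calls of these 6 genes held without any 1 library. For the matrix proteins the higher count was 2 without siYAP 1, and the lower count was 1 without siYAP 3 or siControl 1. For the proteases the lower count was 0 without siYAP 1 and 1 without siYAP 3, siControl 1, siControl 2 or siControl 3. For the collagen-modifying enzymes the higher count was 1 without siYAP 1, siYAP 3 or siControl 1, and the lower count was 1 without siYAP 3. Fibronectin, FN1, was not called (log2 -0.34 ± 0.19, adjusted p = 0.243) but passed with the block (adjusted p = 0.00593). With the block the matrix proteins had 8 higher and 5 lower, the proteases 7 and 4, and the collagen-modifying enzymes 4 and 4. SERPINB7 above is 1 of the 6 proteases and inhibitors that rose, and PLOD2 1 of the 2 collagen-modifying enzymes that fell.

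Among 27 tested integrin and focal adhesion genes, 5 rose and 4 fell. For this list and the actin and epithelial lists below, the shares over all tested genes were 7.89% higher and 8.75% lower. With the block these shares were 13.6% and 14.7%. CAV1, the caveolar coat protein, stood at 180.3, 187 and 178 CPM under siYAP and 294, 235 and 316 CPM under siControl (log2 -0.63 ± 0.10, adjusted p = 0.00191), and this call held without any 1 library. The integrin alpha chain genes ITGA2, ITGA5 and ITGA3 were higher, at 0.87, 0.68 and 0.37, and ITGAV was lower, at -0.48. The ITGA2 call was lost without siYAP 1 (adjusted p up to 0.0659), that of ITGA5 without siYAP 1 or siYAP 3 (adjusted p up to 0.0755), that of ITGA3 without siYAP 1, siYAP 3, siControl 1, siControl 2 or siControl 3 (adjusted p up to 0.146) and that of ITGAV without siYAP 3 or siControl 1 (adjusted p up to 0.103). The list's higher count was 0 without siYAP 1, 1 without siYAP 3, 2 without siControl 1 and 2 without siControl 3, and its lower count 2 without siYAP 3 and 2 without siControl 1. Of 26 actin and SRF target genes, 2 rose and 2 fell, near the shares over all tested genes, with 4 higher and 10 lower under the block. CNN1, a calponin of smooth muscle, stood at 0.952, 0.747 and 1.33 CPM under siYAP and 0, 0.298 and 0.225 CPM under siControl (log2 2.51 ± 0.53, adjusted p = 0.00702). DIAPH3, a formin needed in cytokinesis, changed by -0.82 ± 0.14 (adjusted p = 0.00262), and TPM4, a tropomyosin, by -0.52 ± 0.11 (adjusted p = 0.00752). Of 16 epithelial junction and keratin genes 2 rose and 3 fell, led by KRT80, a type II keratin, at 62.2, 77.6 and 82.0 CPM under siYAP and 118, 130.2 and 144 CPM under siControl (log2 -0.82 ± 0.11, adjusted p = 0.000954). DSP, desmoplakin, changed by -0.53 ± 0.11 (adjusted p = 0.00734). For the actin list the higher count was 1 without siYAP 1, siYAP 3, siControl 1 or siControl 3, and for the epithelial list the higher count was 0 without siYAP 1, siYAP 3, siControl 1 or siControl 3.

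The list of neuronal secretory and synaptic genes had the highest median of the 39 gene lists, the cell type markers aside. It was chosen with earlier results of these data known and holds VGF, LMTK3 and UNC13A, which are among the largest increases. Its rank is therefore no independent result. Of 20 tested members 9 rose and 0 fell, against 7.89% and 8.75% of all tested genes, with a median log2 change of 0.29. The higher count was 4 without siYAP 1, 4 without siYAP 3, 4 without siControl 3 and 5 without siControl 1. VGF (chromosome 7, 101162509 to 101165593), a secreted precursor of neuropeptides, stood at 719, 556 and 635 CPM in the siYAP libraries and 256, 260.3 and 207 CPM in the siControl libraries (log2 1.40 ± 0.13, adjusted p = 7.49e-05). LMTK3, a kinase of the brain, stood at 44.6, 40.4 and 42.6 CPM under siYAP and 13.8, 17.7 and 14.8 CPM under siControl (log2 1.46 ± 0.10, adjusted p = 1.16e-05). UNC13A, which primes synaptic vesicles, stood at 8.97, 7.05 and 8.31 CPM under siYAP and 2.18, 2.98 and 2.92 CPM under siControl (log2 1.59 ± 0.17, adjusted p = 0.000296). In all 3 genes every siYAP value is at least 2-fold above every siControl value. PCSK1N, which encodes proSAAS, an inhibitor of a prohormone convertase, changed by 0.51 ± 0.08 (adjusted p = 0.00186). These 4 calls held without any 1 library, and the other 5 (CPE, CHGB, SYT1, STX1A and RAB3B), between 0.31 and 0.53, did not.

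Of 11 tested genes of prostaglandin signalling, 3 rose and 2 fell. The shares over all tested genes were 7.89% higher and 8.75% lower, or 13.6% and 14.7% with the block. Beside PTGER1, the prostacyclin receptor PTGIR rose, with 2.06, 1.12 and 1.43 CPM under siYAP and 0.115, 0.536 and 0.393 CPM under siControl (log2 2.13 ± 0.44, adjusted p = 0.00657). PTGES, the inducible prostaglandin E synthase, stood at 3.11, 2.51 and 4.32 CPM under siYAP and 1.15, 1.55 and 1.29 CPM under siControl (log2 1.32 ± 0.28, adjusted p = 0.00745). PTGER4, another prostaglandin E2 receptor, was lower (log2 -0.64 ± 0.14, adjusted p = 0.00952). For the prostaglandin list the lower count was 1 without siYAP 1 or siYAP 3. PTGIR and PTGES are both below 2 CPM in every siControl library. Of 33 lysosomal genes 7 rose and 3 fell (12 and 4 with the block), and the higher count was 3 without siYAP 1, 4 without siYAP 3, 3 without siControl 1, 3 without siControl 3 and 4 without siControl 2. PSAPL1, a prosaposin-like gene, stood at 24.7, 20.1 and 26.5 CPM under siYAP and 6.19, 9.77 and 7.52 CPM under siControl (log2 1.60 ± 0.16, adjusted p = 0.000202). TFEB, the regulator of lysosomal genes, changed by 0.85 ± 0.18 (adjusted p = 0.00788), and SCARB2, a lysosomal membrane protein, by -0.45 ± 0.09 (adjusted p = 0.00459). OSTM1 (chromosome 6, 108041409 to 108165854), the partner of the chloride exchanger CLCN7, went the other way, with 41.8, 61.3 and 36.1 CPM under siYAP and 156, 115 and 138 CPM under siControl (log2 -1.56 ± 0.16, adjusted p = 0.000242).

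Immediate early and NF-kB genes gave more lower than higher calls. Of 24 immediate early and AP-1 genes 7 fell and 1 rose (3 higher and 11 lower with the block). Of 17 NF-kB and cytokine genes 7 fell and 0 rose (0 higher and 10 lower with the block). The shares over all tested genes were 8.75% lower and 7.89% higher, or 14.7% and 13.6% with the block. ATF3, a stress-induced factor of the AP-1 family, stood at 2.96, 5.07 and 1.85 CPM in the siYAP libraries and 9.29, 10.7 and 6.63 CPM in the siControl libraries (log2 -1.44 ± 0.30, adjusted p = 0.00706). KLF6, a Krüppel-like factor, stood at 197, 264 and 202 CPM under siYAP and 347, 384 and 318 CPM under siControl (log2 -0.66 ± 0.12, adjusted p = 0.00288). MYC stood at 77.6, 104 and 112 CPM under siYAP and 135, 135 and 142 CPM under siControl (log2 -0.49 ± 0.11, adjusted p = 0.0112), with siYAP 1 the lowest. The groups do not overlap in any of these 3 genes. BIRC3, an NF-kB target that inhibits cell death, stood at 105, 82.7 and 60.8 CPM under siYAP and 199.8, 195 and 128 CPM under siControl (log2 -1.07 ± 0.20, adjusted p = 0.00408). NFKBIE, an inhibitor of NF-kB, stood at 34.6, 39.9 and 35.5 CPM under siYAP and 51.5, 55.4 and 46.7 CPM under siControl (log2 -0.48 ± 0.09, adjusted p = 0.00484). These 5 calls held without any 1 library. RELB, TNFAIP3 and NFKBIA were also called, at -0.58, -0.68 and -0.71. The RELB call was lost without siYAP 3 (adjusted p up to 0.0661), that of TNFAIP3 without siYAP 3 (adjusted p up to 0.0669) and that of NFKBIA without siYAP 1 or siYAP 3 (adjusted p up to 0.0749). The NF-kB count was 2 without siYAP 3 and 4 without siYAP 1, and that of the immediate early genes 4 without siYAP 1, 4 without siYAP 3 and 4 without siControl 1.

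Genes known as p53 targets fell in this p53-null line in 6 of 24 cases, and 1 rose. All tested genes together had 8.75% lower and 7.89% higher, or 14.7% and 13.6% with the block. PMAIP1, or NOXA, a BH3-only death inducer, stood at 6.52, 9.50 and 7.17 CPM in the siYAP libraries and 19.4, 19.4 and 18.6 CPM in the siControl libraries (log2 -1.31 ± 0.13, adjusted p = 0.000205). The siYAP mean is 40.4% of the siControl mean, and the groups are far apart. Like those of CDKN1A and GADD45A, its call held without any 1 library, which those of RRM2B, PLK2 and CCNG1 did not. The single higher call was lost without any of siYAP 1, siYAP 3 and the siControl libraries, and the lower count was 3 without siYAP 1 and 3 without siYAP 3. In the BCL2 family 3 of 15 genes fell (PMAIP1, BCL2 and MCL1) and 1 rose (BAK1), with 1 higher and 6 lower with the block, and of these calls that of PMAIP1 held without any 1 library. For this family the higher count was 0 without siYAP 1, siYAP 3, siControl 1 or siControl 3, and the lower count was 1 without siYAP 3 or siControl 1.

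The remaining signalling lists gave calls in both directions, several of which depended on single libraries. The interferon response had 3 higher and 2 lower of 27, the TGF-beta pathway 2 higher and 4 lower of 24, growth factors and receptors 1 higher and 4 lower of 25, and WNT genes 1 higher and 3 lower of 22. Over all tested genes 7.89% were called higher and 8.75% lower. The interferon list had 6 higher and 3 lower with the block, and the growth factors 3 higher and 6 lower. STAT2, a subunit of the interferon-stimulated factor, changed by 0.51 ± 0.10 (adjusted p = 0.00576). LTBP3, which anchors latent TGF-beta, stood at 287, 226 and 256 CPM under siYAP and 167, 187 and 163 CPM under siControl (log2 0.57 ± 0.10, adjusted p = 0.00331). LRP5, a WNT coreceptor, stood at 139, 118 and 128 CPM under siYAP and 91.2, 81.1 and 84.2 CPM under siControl (log2 0.59 ± 0.09, adjusted p = 0.00192). These 3 calls held without any 1 library. With the block the TGF-beta list had 3 higher and 9 lower, and the WNT list 2 higher and 7 lower. In the interferon list the higher count was 1 without siControl 1 or siControl 3, and the lower count was 0 without siYAP 3 and 1 without siYAP 1, siControl 1, siControl 2 or siControl 3. In the TGF-beta list the higher count was 1 without siYAP 1, siYAP 3, siControl 1 or siControl 3, and the lower count was 0 without siYAP 3 or siControl 1 and 1 without siYAP 1. In the growth factor list the higher count was 0 without siYAP 1, siYAP 3 or siControl 1 and 3 without siYAP 2, and the lower count was 0 without siYAP 3, 1 without siControl 1 and 2 without siYAP 1 or siControl 3. In the WNT list the higher count was 2 without siYAP 2, and the lower count was 0 without siYAP 3 or siControl 1 and 1 without siControl 3.

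Metabolic lists gave more lower than higher calls. Across all tested genes 8.75% were called lower and 7.89% higher, or 14.7% and 13.6% with the block. In the glycolysis and hypoxia list 7 of 30 genes fell and 1 rose, but none of these calls held without any 1 library; the lower count was 0 without siYAP 3, 2 without siYAP 1, 4 without siYAP 2, 1 without siControl 1 and 3 without siControl 3. The lowest value was that of ALDOC, aldolase C, called at -1.53 ± 0.44 (adjusted p = 0.0309) and lost without siYAP 1, siYAP 3 or siControl 3 (adjusted p up to 0.14). LDHA, lactate dehydrogenase A, stood at 318, 432 and 333 CPM under siYAP and 578, 629 and 481 CPM under siControl (log2 -0.64 ± 0.16, adjusted p = 0.0176), and its call was lost without siYAP 3 (-0.58, adjusted p = 0.0827), without siYAP 1 (-0.57, adjusted p = 0.08) and without siControl 1 (-0.62, adjusted p = 0.0609). Of 24 ATF4 targets and serine pathway genes 7 fell and 0 rose (1 higher and 12 lower with the block), and CEBPG, a partner of ATF4, changed by -0.50 ± 0.10 (adjusted p = 0.0057). Of 23 NRF2 targets 3 fell and 1 rose (2 higher and 9 lower with the block), and TKT, transketolase, stood at 256, 299 and 282 CPM under siYAP and 401, 431 and 392 CPM under siControl (log2 -0.55 ± 0.09, adjusted p = 0.00262). CEBPG and TKT were called without any 1 library. The member that rose was ABCC3, an efflux transporter of organic anions, at 1.02 ± 0.27 (adjusted p = 0.0197), lost without siYAP 1, siYAP 3, siControl 1 or siControl 3 (adjusted p up to 0.0919). For the NRF2 targets the higher count was 0 without siYAP 1, siYAP 3, siControl 1 or siControl 3, and the lower count was 1 without siYAP 3 or siControl 1. The ATF4 count was 1 without siYAP 3, 4 without siYAP 1 and 1 without siControl 1.

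Most nuclear genes of the respiratory chain and the cytosolic ribosomal protein genes were not called. Of 32 nuclear genes of the respiratory chain 1 was called: SDHD, an anchor of succinate dehydrogenase, stood at 21.1, 31.9 and 21.3 CPM in the siYAP libraries and 54.3, 52.6 and 52.2 CPM in the siControl libraries (log2 -1.10 ± 0.14, adjusted p = 0.000798). The list had 4 lower with the block, and its median was 0.01. All 13 mitochondrial genes had positive values, with a median of 0.25, but 1 was called, MT-ND3 (log2 0.46 ± 0.12, adjusted p = 0.0235), and its call was lost without siYAP 3 (0.48, adjusted p = 0.0651), without siYAP 1 (0.42, adjusted p = 0.0964), without siControl 2 (0.40, adjusted p = 0.0622) and without siControl 1 (0.47, adjusted p = 0.0799). With the block 4 of the 13 were higher. All 35 ribosomal protein genes had negative values between -0.27 and -0.03, and none was called; with the block 3 were lower. Of 25 MYC targets and ribosome biogenesis genes 4 were lower and 0 higher (1 higher and 7 lower with the block). Of 24 unfolded protein response genes 2 were lower, ARL6IP1 and EIF2AK3 (1 higher and 5 lower with the block). That lower share is near the 8.75% over all tested genes, which was 14.7% with the block. For the MYC list the lower count was 1 without siYAP 1 or siControl 1 and 2 without siYAP 3 or siControl 3, and for the unfolded protein response the higher count was 1 without siYAP 2, and the lower count was 1 without siYAP 3 or siControl 1 and 4 without siControl 2.

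The YAP and TAZ pools were then compared by testing siYAP against siTAZ directly. A difference in this test can come from a larger change under either pool or from changes in opposite directions. Of 15775 genes 1846 differed (11.7%), 883 higher under siYAP (5.6%) and 963 lower (6.1%), and 3399 with the block (21.5%), 1742 higher (11.0%) and 1657 lower (10.5%). Without 1 library of siYAP or siTAZ the count was between 856 and 2006. The mitotic kinase list gave 1 higher and 1 lower of 28, with 9 lower without siYAP 2 and 6 lower with the block. The kinesin list gave 0 higher and 1 lower of 37, with 10 lower without siYAP 2, 0 lower without siYAP 1, siYAP 3 or siTAZ 1, 1 higher without siTAZ 2 and 4 lower with the block. Against siControl, the medians of the mitotic kinase and kinesin lists were -0.73 and -0.79 under siTAZ. The replication list gave 4 higher and 0 lower of 35, or 2 higher without siTAZ 3 and 9 with the block. The nucleotide list gave 6 higher and 0 lower of 17, or 1 higher without siTAZ 3 and 2 lower without siYAP 2. Under siYAP and siTAZ their medians against siControl were -0.51 and -0.75 for replication and -0.56 and -0.57 for nucleotides. The 3 siTAZ libraries of CENPA held 16.2, 21.4 and 13.3 CPM, and the log2 difference, siYAP minus siTAZ, was -0.54 ± 0.19 (adjusted p = 0.0803), with an adjusted p of 0.041 under the block. The targeted transcripts followed the labels: WWTR1 stood at 173, 203 and 167 CPM in the siYAP libraries, 36.1, 82.7 and 29.05 CPM in the siTAZ libraries and 265, 276 and 229 CPM in the siControl libraries, and YAP1 stood at 96.5, 106 and 100.5 CPM in the siTAZ libraries. The sterol synthesis list had 1 higher and 1 lower of 27, and 3 higher and 2 lower with the block. Its median against siControl was -0.48 under siYAP and -0.43 under siTAZ. Its higher call was lost without any 1 of the siYAP libraries, siTAZ 2 or siTAZ 3, and its lower count was 3 without siYAP 2. The lower gene was SREBF2, with 234, 316 and 207 CPM under siYAP and 552, 489.8 and 492 CPM under siTAZ (log2 -1.02 ± 0.13, adjusted p = 0.000486).

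Several of the largest decreases were lower under siYAP than under siTAZ. PLOD2 stood at 28.1, 39.5 and 25.5 CPM in the siYAP libraries and 103, 76.8 and 92.2 CPM in the siTAZ libraries (log2 -1.55 ± 0.16, adjusted p = 0.000137). ARL6IP1 stood at 98.8, 129 and 90.0 CPM under siYAP and 275, 249 and 251 CPM under siTAZ (log2 -1.29 ± 0.17, adjusted p = 0.000531). PMAIP1 stood at 6.52, 9.50 and 7.17 CPM under siYAP and 17.6, 18.8 and 19.3 CPM under siTAZ (log2 -1.27 ± 0.13, adjusted p = 0.000137). In these 3 genes no siYAP value reaches a siTAZ value. OSTM1, COMMD8, TNFRSF21, PEX2 and CDKN2B were also lower under siYAP, with log2 differences of -1.02 ± 0.16 (adjusted p = 0.00154), -1.39 ± 0.19 (adjusted p = 0.000779), -1.55 ± 0.14 (adjusted p = 9.26e-05), -1.16 ± 0.16 (adjusted p = 0.00081) and -1.47 ± 0.15 (adjusted p = 0.000134). These 8 differences held without any 1 of the siYAP or siTAZ libraries.

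NF-kB genes had 9 of 17 lower and 0 higher than under siTAZ, and p53 targets 8 lower and 1 higher of 24. In this test 6.1% of all tested genes were lower and 5.6% higher. Against siControl, the NF-kB median log2 change was -0.48 under siYAP and 0.14 under siTAZ, and the p53 median -0.19 and 0.06. The higher p53 call was lost whichever of the 6 libraries was left out, and the lower p53 count fell to 2 without siYAP 1 or siYAP 3, 4 without siTAZ 3 and 5 without siTAZ 2, and the NF-kB count was 8 to 10 without any 1 library. BIRC3 stood at 105, 82.7 and 60.8 CPM in the siYAP libraries and 214, 150.3 and 157 CPM in the siTAZ libraries (log2 -1.07 ± 0.20, adjusted p = 0.00434), and TNFAIP3, the A20 feedback inhibitor, at 11.7, 10.6 and 9.22 CPM under siYAP and 30.1, 19.6 and 24.9 CPM under siTAZ (log2 -1.24 ± 0.16, adjusted p = 0.000372). IRF1, an interferon regulatory factor, differed by -1.15 ± 0.13 (adjusted p = 0.000234). These 3 differences held without any 1 library. In the opposite direction, 13 of 25 MYC targets and ribosome biogenesis genes were higher under siYAP than under siTAZ and 0 lower, or 6 without siTAZ 3 and 7 without siYAP 3. The median of this list against siControl was -0.14 under siYAP and -0.46 under siTAZ. MYC stood at 77.6, 104 and 112 CPM under siYAP and 69.2, 70.0 and 72.9 CPM under siTAZ (log2 0.47 ± 0.11, adjusted p = 0.0165), and CTGF at 59.9, 69.5 and 59.3 CPM under siYAP and 49.1, 38.8 and 38.2 CPM under siTAZ (log2 0.58 ± 0.13, adjusted p = 0.0136). The MYC difference was lost without siYAP 2, siYAP 3, siTAZ 1 or siTAZ 3, and the CTGF difference without siTAZ 3.

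Among the increases, VGF stood at 719, 556 and 635 CPM in the siYAP libraries and 153, 185 and 147 CPM in the siTAZ libraries (log2 1.98 ± 0.13, adjusted p = 3.44e-06). SERPINB7 stood at 14.6, 5.50 and 15.1 CPM under siYAP and 0.653, 0.703 and 0.660 CPM under siTAZ (log2 4.11 ± 0.39, adjusted p = 0.0001). APOE stood at 48.1, 27.2 and 42.1 CPM under siYAP and 15.2, 14.7 and 16.1 CPM under siTAZ (log2 1.35 ± 0.17, adjusted p = 0.000345). In these 3 genes every siYAP value exceeds every siTAZ value. For VGF and SERPINB7 every siTAZ value lay below every siControl value, and for APOE every siTAZ value lay above. LMTK3, UNC13A and PTGER1 were higher under siYAP by 0.70 ± 0.10 (adjusted p = 0.000853), 1.07 ± 0.16 (adjusted p = 0.00127) and 0.87 ± 0.14 (adjusted p = 0.00144). These 6 differences held without any 1 library. Matrix proteases as a list had 3 higher and 9 lower of 23 (6 lower without siYAP 3 or siTAZ 1), against 5.6% and 6.1% of all tested genes. Their median against siControl was 0.03 under siYAP and 0.36 under siTAZ. MMP10, a stromelysin whose fall against siControl was lost without siYAP 1 or siControl 2 (adjusted p up to 0.0826), stood at 3.26, 5.77 and 5.42 CPM under siYAP and 21.6, 18.0 and 24.3 CPM under siTAZ (log2 -2.14 ± 0.22, adjusted p = 0.000137).

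**Figure D5:**
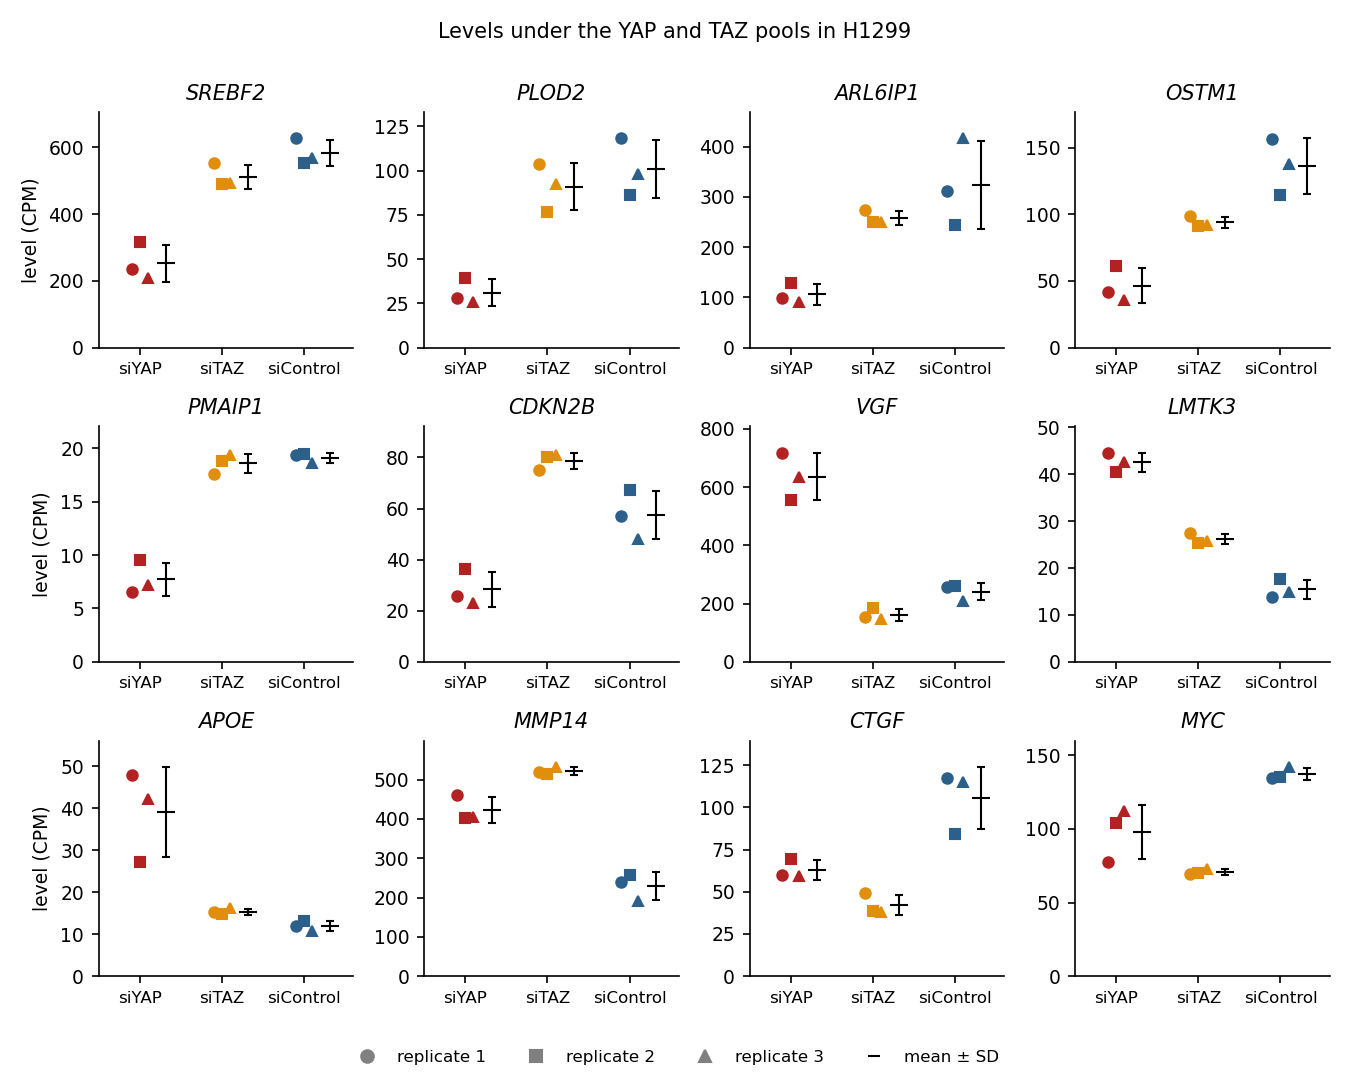
Levels in CPM (y axis, linear from 0) of 12 genes in the siYAP, siTAZ and siControl libraries of H1299 (symbols mark the replicate number, bars the mean ± SD, n = 3). SREBF2, PLOD2, ARL6IP1, OSTM1, PMAIP1 and CDKN2B are lowest under siYAP, VGF, LMTK3 and APOE are highest under siYAP, and CTGF and MYC are lowest under siTAZ.

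The siYAP change in H1299 was then set against that in A549, a lung adenocarcinoma line with intact p53 that was grown in another medium and deposited in another table. In A549, YAP1 stood at 17.0, 15.5 and 19.5 CPM in the siYAP libraries and 59.6, 56.9 and 58.3 CPM in the siControl libraries, a log2 change of -1.76 ± 0.09 (adjusted p = 9.1e-05). The test of the difference between the lines called 13 of 15816 genes (0.0822%), 5 with a higher value in H1299 (0.0316%) and 8 with a lower one (0.0506%), and 1712 with the block (10.8%), 752 higher in H1299 (4.75%) and 960 lower (6.07%). Without 1 of the 12 libraries it called 0 to 130 genes. Of the genes named for their size or as leading members of a list, ARL6IP1, OSTM1, PMAIP1 and SREBF2 differed between the lines. Each of these 4 differences was lost without any of 8 or 9 of the 12 libraries, with adjusted p up to 0.0796 for SREBF2, 0.0911 for ARL6IP1, 0.0943 for PMAIP1 and 0.113 for OSTM1.

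SREBF2 in A549 stood at 272, 224 and 267 CPM in the siYAP libraries and 279, 256 and 266 CPM in the siControl libraries. Its log2 difference there was -0.07 ± 0.09, and the difference, H1299 minus A549, was -1.14 ± 0.17 (adjusted p = 0.0255). PMAIP1 in A549 stood at 16.6, 15.4 and 17.2 CPM under siYAP and 16.6, 18.6 and 22.4 CPM under siControl, with a difference between lines of -1.08 ± 0.18 (adjusted p = 0.0255). The A549 groups overlap in both genes. ARL6IP1 in A549 stood at 258, 245 and 218 CPM under siYAP and 299, 295 and 248 CPM under siControl, with a difference of -1.39 ± 0.23 (adjusted p = 0.0255). OSTM1 in A549 stood at 60.2, 51.9 and 60.7 CPM under siYAP and 74.4, 72.2 and 76.1 CPM under siControl, with a difference of -1.19 ± 0.21 (adjusted p = 0.0315). All 4 genes fell in H1299, and none was called in A549 without the block. With the block ARL6IP1 and OSTM1 were called in A549 (adjusted p = 0.000383 and 1.24e-06), and SREBF2 and PMAIP1 were not.

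For the mitosis genes the A549 values were closer to 0, and no difference between the lines was called without the block. The median change in A549 was -0.28 for mitotic kinases, cyclins and checkpoint genes and -0.27 for kinesins, centromere and cytokinesis genes, and no member was called in A549 without the block. Without it, A549 gave 1 call among 1344 genes called lower in H1299 and 0 among 1116 called higher. The lack of A549 calls therefore says little about these lists. Deviations from group means of same-numbered A549 libraries correlated at 0.384 to 0.729, against -0.550 to 0.279 for different numbers. For CENPA the difference between lines was -1.24 ± 0.50 (adjusted p = 0.369), with an adjusted p of 0.00118 under the block. For VGF, with -0.22 ± 0.39 in A549, the difference was 1.62 ± 0.36 (adjusted p = 0.0974), with 0.000962 under the block, and for PLOD2, with -0.63 ± 0.13 in A549, it was -1.07 ± 0.23 (adjusted p = 0.0966), with 0.000346 under the block. Line, medium and deposited table go together, so they cannot be told apart.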

How the data were processed

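Poly(A) RNA of H1299 and A549 cells was sequenced by the authors, who deposited 1 table per line with the raw counts of each gene symbol. Per the submitters' processing notes, reads were trimmed with cutadapt, aligned with STAR 2.4.2a to GRCh38 and compared with DESeq2. For the counting tool, annotation and strand setting, nothing is given in the sources used here. The tables hold no gene whose highest count is below 6. The deposited log2 fold changes and adjusted p-values of siYAP against siControl served for 1 comparison of calls, and 36 normalized or transformed per-sample columns were not used.

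The raw counts were tested with edgeR 4.0.16 (TMM scaling, filterByExpr by group, quasi-likelihood F test, Benjamini-Hochberg adjustment over 15775 genes) in R 4.3.3, in 1 fit of the 9 H1299 libraries. The difference between lines came from a joint fit of all 18 libraries. The scripts were tested on simulated data. Alternatives were DESeq2 1.42.0, its size factors, no filter, the 6 libraries alone, a replicate block and leaving out each library. Tables were handled with pandas 2.3.3 in Python 3.11.15. No 2 libraries agreed within sampling noise. Deviations from group means of libraries with the same replicate number correlated at 0.108 to 0.383 in H1299 (9 pairs). For different numbers the range was -0.324 to 0.160. Every same-numbered pair was over 0.1, the minimum set for taking the numbers as pairs, though the ranges overlap. The main fit did not use this pairing, which entered through the replicate block.

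Gene positions and overlaps come from GENCODE 29, to which 97.7% of symbols matched. Named genes are YAP1, WWTR1, the 15 largest called decreases and increases (protein coding, mean of at least 5 CPM, groups apart), and called list members, the 4 with the smallest p in full. Uncalled list members and the genes said to be chosen after their values were seen were added for context. The comparison, the members and the lists were chosen with earlier results of these data known.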

Additional observations from a re-analysis of the deposited data

Results flagged for a closer look

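Among the genes named in the report, 4 were set apart because the siYAP change itself differed between H1299 and A549 by the test of the difference. The difference, H1299 minus A549, was -1.39 ± 0.23 (adjusted p = 0.0255) for ARL6IP1 and -1.19 ± 0.21 (adjusted p = 0.0315) for OSTM1. It was -1.08 ± 0.18 (adjusted p = 0.0255) for PMAIP1 and -1.14 ± 0.17 (adjusted p = 0.0255) for SREBF2. With the replicate block the adjusted p was 0.000128, 0.000251, 0.000188 and 2.27e-05 in that order. In each gene every siYAP library of H1299 lay below every siControl library of H1299. For ARL6IP1, OSTM1 and PMAIP1 this was a condition of being named among the largest decreases. Cell line, medium and deposited table go together in this comparison and cannot be told apart.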

How the results depend on the processing

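YAP1 fell under all alternatives, with a log2 change of -2.73 to -2.33 without 1 library. WWTR1 lay between -0.59 and -0.45 without 1 library, and passed the threshold with the replicate block (-0.51) and in the 6 libraries alone (-0.50). With the replicate block 4461 genes were called, 2138 higher and 2323 lower, in siYAP against siControl. It called 3399 genes, 1742 higher and 1657 lower, against siTAZ, and 1712, 752 higher and 960 lower, in the difference between lines. The block ended no siYAP against siControl call of a gene named in the report, and the calls it added are given there. Without 1 library, siYAP against siControl gave 1124 to 3066 calls (454 to 1478 higher, 601 to 1588 lower, 180 to 539 of at least 2-fold), siYAP against siTAZ 856 to 2006 (359 to 941 higher, 476 to 1065 lower), and the difference between lines 0 to 130 (0 to 59 higher, 0 to 71 lower). Members called lower numbered 22 to 26 for mitotic kinases, 34 to 37 for kinesins and centromere genes, 14 to 34 for replication and 5 to 18 for sterol synthesis. Of the other named genes, DESeq2 lost 3 calls, its size factors 3, no filter 7, the 6 libraries alone 13 and leaving out 1 library 21 to 151, and none of these genes reversed. MT2A, not called at 1.17, was -0.39 without siYAP 1 and so reversed, and it passed at 1.61 without siYAP 2. The authors' deposited table called 1130 genes higher and 1510 lower among the tested genes, of which 2446 were called here in the same direction. With 3 libraries a group, small changes depend on single libraries.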

Other observations

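The genes named here were chosen after their values were seen. A pair of neighbouring mucin genes rose. MUC4, a membrane mucin, stood at 8.52, 5.71 and 7.89 CPM in the siYAP libraries and 1.55, 0.596 and 1.91 CPM in the siControl libraries (log2 2.43 ± 0.32, adjusted p = 0.000876). MUC20, another membrane mucin, stood at 8.77, 5.55 and 7.89 CPM under siYAP and 3.10, 1.49 and 2.19 CPM under siControl (log2 1.71 ± 0.25, adjusted p = 0.00145). Every siYAP value of both genes exceeds every siControl value. AOX1, aldehyde oxidase, stood at 5.06, 2.46 and 5.84 CPM under siYAP and 0.803, 0.715 and 0.955 CPM under siControl (log2 2.43 ± 0.32, adjusted p = 0.00081). ITGAX, an integrin of myeloid cells, stood at 4.96, 4.32 and 5.42 CPM under siYAP and 0.917, 1.43 and 1.46 CPM under siControl (log2 1.95 ± 0.24, adjusted p = 0.000649). These 4 calls held without any 1 library.

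BCYRN1, a short RNA of the neuronal cytoplasm that is transcribed by RNA polymerase III, stood at 35.1, 45.9 and 0.998 CPM in the siYAP libraries, 0.381, 0.351 and 0.355 CPM in the siTAZ libraries and 0.459, 0.536 and 0.674 CPM in the siControl libraries (log2 5.60 ± 1.00, adjusted p = 0.0032). It was high in siYAP 1 and siYAP 2 but not in siYAP 3, and its annotation overlaps a gene on the other strand.

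Long non-coding transcripts were called higher in 132 of 1766 cases (7.47%) and lower in 20 (1.13%), with a median log2 change of 0.23. Protein-coding genes were higher in 1060 of 12701 cases (8.35%) and lower in 1328 (10.5%), with a median of -0.02. Among the genes of lowest expression, up to 3.05 CPM, the protein-coding median was 0.22 and the long non-coding median 0.24. Over the libraries, the median log2 ratio of long non-coding transcripts to the siControl mean was 0.13 to 0.18 under siYAP, 0.04 to 0.19 under siTAZ and -0.03 to 0.04 under siControl. NEAT1, the scaffold of paraspeckles, stood at 629, 415 and 473 CPM under siYAP and 264, 311 and 329.6 CPM under siControl (log2 0.75 ± 0.15, adjusted p = 0.00484). NORAD, which binds PUMILIO proteins, went the other way, with 126, 154 and 139 CPM under siYAP and 199, 214 and 186 CPM under siControl (log2 -0.51 ± 0.09, adjusted p = 0.00328).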
